A study of Mus musculus with 12 samples.

Results

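Semaphorins, their plexin receptors and the neuropilin co-receptors were followed in mouse spinal cord white matter before and 72 h after a demyelinating injury. Members were the protein-coding genes whose symbol starts with Sema and a number or with Plxn and a, b, c or d, together with Nrp1 and Nrp2. The deposited table held 31 such genes among 46078 gene rows, of which 20 were semaphorins, 9 plexins and 2 neuropilins. Injury was accompanied by higher transcript levels of a set of receptors (Plxnc1, Plxnd1, Plxnb2, Plxna1, Nrp1 and Nrp2) at both ages, whereas Plxnb1, Plxnb3 and the ligands Sema6d, Sema6a, Sema5a and Sema3b were lower. The ligands Sema3d and Sema4b were higher at both ages, and so was Sema3f, which passed the filter on low counts through its injured pools alone. Age was accompanied by a lower level of Sema5a in injured tissue, where markers of oligodendrocytes and of other cells differed as well. In naïve tissue its lower level passed the test in the fit of all pools but not when the naïve pools were fitted alone (adjusted p = 0.0925, edgeR).

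Semaphorins are secreted or membrane-bound guidance proteins that share an extracellular sema domain and signal mainly through plexins. Most secreted class 3 semaphorins need a neuropilin to hold them on a plexin of the A type, while the membrane-bound classes bind plexins directly. Plexins act inside the cell through a domain that switches off small Ras-like GTPases, and so change the cytoskeleton and adhesion. In the nervous system the family is known for steering axons and migrating oligodendrocyte progenitors, and in the immune system for regulating lymphocytes and myeloid cells.

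RNA came from ventrolateral spinal cord white matter of C57Bl6 mice, cut out from stained cryosections by laser capture microdissection. The 4 groups crossed age (young or middle-aged) with lesion (naïve or injured), with 6 weeks given as the age of young and 8 months as that of middle-aged mice. Injured tissue was taken 72 h after injection of lysolecithin, a detergent-like lipid that destroys myelin, and naïve mice carried no lesion, so that the injection itself and the demyelination cannot be told apart. Each group held 3 libraries, each made from RNA pooled from 5 mice and amplified during library building, so a replicate is a pool.

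Total counts on genes were between 9834447 and 12807437 per pool. Across genes, pools of 1 group correlated with Pearson's r of 0.937 to 0.988 on log2 levels, a description over genes that are not independent. The tissue label fitted its markers, since 8 oligodendrocyte markers summed to 54299 to 105740 CPM, counts scaled to library size, in naïve pools against 1305 to 3333 CPM for 7 neuronal markers. After injury the oligodendrocyte sum was 18966 to 21171 CPM in young and 8183 to 12853 CPM in middle-aged pools. The sum of 7 pan-myeloid markers was 74.5 to 169 CPM in naïve and 1506 to 2081 CPM in injured pools. That of 6 fibroblast markers was 134 to 206 CPM in naïve and 560 to 1591 CPM in injured pools. In such bulk tissue, fewer cells of a type and less RNA per cell cannot be told apart.

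Promoter sequences are shown for 4 receptors that were higher after injury and for Sema6d, the ligand with the highest counts among those that were lower. They are the 250 bases before the RefSeq transcription start on GRCm38.p6, written 5′ to 3′ on the gene's strand, chosen among members whose window held no annotated exon. Capitals mark matches, on either strand, to 5 short motifs. These were the GC box, spelled GGGCGG, and the core of a site of the myeloid factor PU.1, spelled GAGGAA. The others were the core bound by SOX factors, spelled ACAAAG, and a pair of general promoter elements, the first of which is spelled TATAAA (here called the TATA box). The last is the CCAAT box, searched by these letters. No matches overlapped in the windows shown. The Plxnc1 window lies at chr10:94944846-94945095, minus strand, and that of Plxnd1 at chr6:115995006-115995255, minus strand. The window of Plxnb2 lies at chr15:89180789-89181038, minus strand, and that of Nrp1 at chr8:128358823-128359072, plus strand, inside an intron of a longer annotated Nrp1 transcript. The first of 2 Sema6d windows lies at chr2:124089719-124089968, plus strand.
Plxnc1: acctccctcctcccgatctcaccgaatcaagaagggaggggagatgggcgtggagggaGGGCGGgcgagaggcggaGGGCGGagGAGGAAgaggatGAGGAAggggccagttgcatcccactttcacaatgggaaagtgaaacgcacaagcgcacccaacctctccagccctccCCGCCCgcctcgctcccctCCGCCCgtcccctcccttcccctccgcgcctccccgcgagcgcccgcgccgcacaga
Plxnd1: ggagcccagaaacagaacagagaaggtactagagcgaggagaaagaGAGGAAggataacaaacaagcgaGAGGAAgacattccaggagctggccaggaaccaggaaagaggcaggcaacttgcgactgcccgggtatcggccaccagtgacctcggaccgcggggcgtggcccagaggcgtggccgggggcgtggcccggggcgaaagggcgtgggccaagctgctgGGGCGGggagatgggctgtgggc
Plxnb2: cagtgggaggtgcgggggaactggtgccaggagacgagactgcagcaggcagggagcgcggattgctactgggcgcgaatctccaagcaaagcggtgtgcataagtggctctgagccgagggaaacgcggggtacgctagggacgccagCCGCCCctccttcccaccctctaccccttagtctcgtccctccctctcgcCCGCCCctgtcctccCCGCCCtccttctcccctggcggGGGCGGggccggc
Nrp1: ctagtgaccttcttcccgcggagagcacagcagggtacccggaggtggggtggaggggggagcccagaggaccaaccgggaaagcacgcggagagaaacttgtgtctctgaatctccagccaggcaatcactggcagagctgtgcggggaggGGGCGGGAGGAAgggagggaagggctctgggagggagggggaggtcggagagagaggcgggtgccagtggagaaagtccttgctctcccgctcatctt
Sema6d: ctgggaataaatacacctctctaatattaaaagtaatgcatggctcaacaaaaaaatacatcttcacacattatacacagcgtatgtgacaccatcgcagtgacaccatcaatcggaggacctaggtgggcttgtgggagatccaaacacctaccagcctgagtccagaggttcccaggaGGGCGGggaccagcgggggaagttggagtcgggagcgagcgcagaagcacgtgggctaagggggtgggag

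Plxnc1 and Plxnd1 each held 2 matches to the PU.1 core and Nrp1 held 1, while the windows of Plxnb2 and Sema6d held 0. The sequence tables matched 26 of the 31 members with 37 windows. Among these 37 windows, 12 held the PU.1 core, against 23.3% of all 32851 windows of that length. The GC box was in 27 of 37 windows against 32.7% of all windows, and the median GC content was 64.0% against 52.4%. A TATA box was in 0 of 37 windows against 12.4%, a CCAAT box in 7 against 33.8% and the SOX core in 5 against 16.5%. These matches describe letters in the windows, and no binding was measured.

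The effect of injury was compared within each age. Of the 31 members, 30 passed the filter on low counts, and Sema6c, with 0 to 5 counts per pool, was not tested. Sema3f and Sema3g passed through their injured pools, as 0 and 2 of their 6 naïve pools reached the count minimum of the filter, so their injury p-values are not given, although the counts of calls below include them. In young mice 9 members were higher and 6 lower by edgeR's quasi-likelihood test with an adjusted p under 0.05, that is 15 of 30 (50%) against 54.6% of all 15866 genes tested (28.3% higher and 26.3% lower). In middle-aged mice 12 were higher and 7 lower, that is 19 of 30 (63.3%) against 58.5% of all genes (29.2% higher and 29.3% lower). The shares were thus near the background of each comparison. The median absolute log2 fold change of the members was 0.79 in young mice against 0.71 over all genes, and 0.76 against 0.79 in middle-aged mice. With a change of at least 2-fold asked as well, 8 members were higher and 3 lower in young mice, against 34.2% of all genes in either direction, and 9 were higher and 5 lower in middle-aged mice, against 38.1%. All injured pools were above all naïve pools for 9 members and below them for 7 in young mice, against 67.2% of genes without overlap. In middle-aged mice these numbers were 12 and 7, against 61.1%. By family, 6 of 9 plexins, 2 of 2 neuropilins and 7 of 19 tested semaphorins passed the test in young mice, and 7, 2 and 10 did so in middle-aged mice.

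Higher at both ages were 9 members, Nrp1, Nrp2, Plxna1, Plxnb2, Plxnc1, Plxnd1, Sema3d, Sema3f and Sema4b. Lower at both ages were 6, Plxnb1, Plxnb3, Sema3b, Sema5a, Sema6a and Sema6d. A further 4 passed the test in middle-aged mice alone, Sema3g, Sema4d and Sema6b as higher and Plxna3 as lower, and 11 passed at neither age. Both comparisons have their own control pools.

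**Figure D1:**
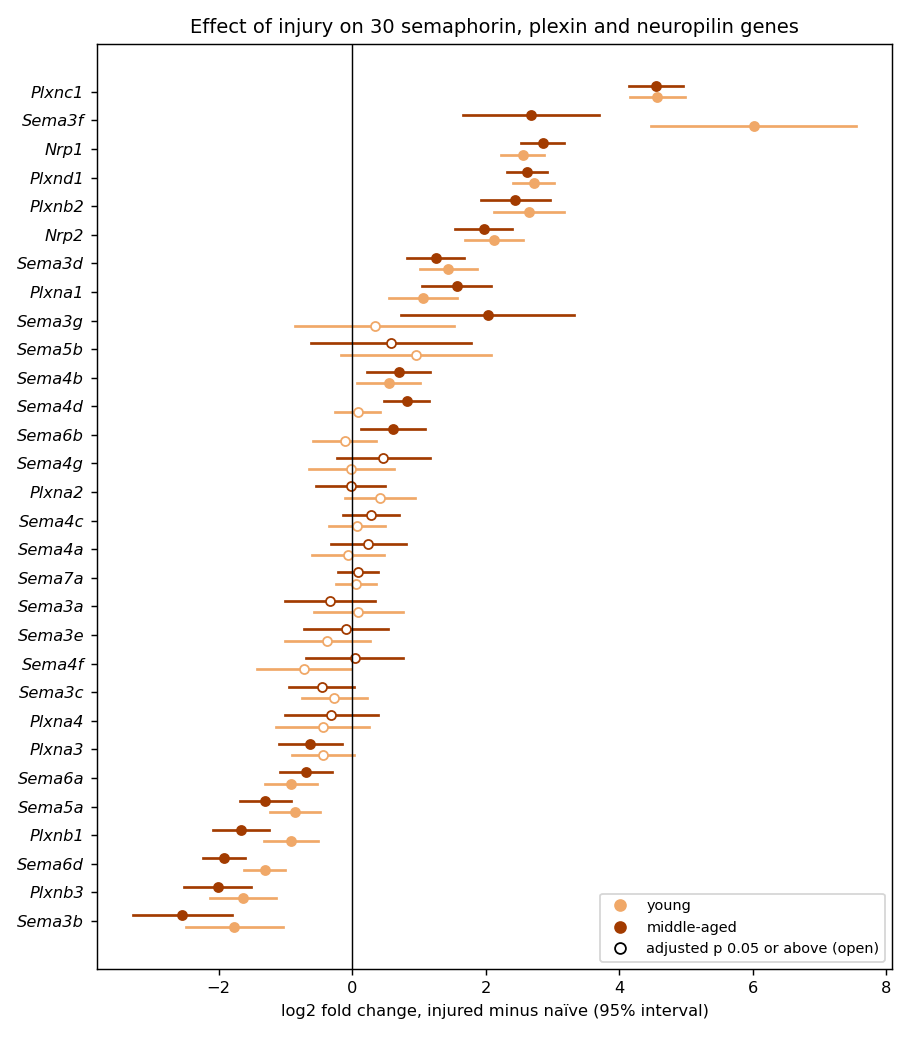
Log2 fold change of 30 genes, injured minus naïve, in young (light) and middle-aged (dark) mice, with 95% intervals of the fit. Filled points have an adjusted p under 0.05. Plxnc1 lies near 4.6 at both ages and Sema3b is lowest, at −1.76 and −2.55. The value of Sema3f in young mice depends on the prior count, as its young naïve pools held 0 or 1 count, and Sema3f and Sema3g passed the filter through their injured pools.

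Among the secreted class 3 ligands, 3 of 7 passed the test in young mice and 4 of 7 in middle-aged mice. Over all genes the shares were 54.6% and 58.5%. These class 3 counts include Sema3f at both ages and Sema3g in middle-aged mice, which passed the filter through their injured pools. Sema3d, a class 3 ligand, was at 20.7, 20.5 and 16.0 CPM in young naïve pools and at 51.2, 44.7 and 59.4 CPM after injury. In middle-aged pools it was at 14.5, 10.7 and 19.2 CPM in naïve and 36.1, 33.8 and 36.0 CPM in injured tissue. At neither age did the groups overlap, and the log2 fold changes were 1.44 (SE 0.20, adjusted p = 2.29e-05, edgeR) and 1.25 (SE 0.20, adjusted p = 8.21e-05).

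Sema3f, which acts through Nrp2 and is known as an attractant of oligodendrocyte progenitors, was nearly undetected in young naïve white matter, with 0, 1 and 0 counts. Young injured pools held 43, 37 and 29 counts, or 2.18 to 3.15 CPM, all above the naïve pools. The ratio of the summed counts, adjusted for library size, was 85.7 with a 95% counting interval of 15.1 to 3417, from 109 counts against 1. Middle-aged naïve pools held 7, 4 and 6 counts and middle-aged injured pools 51, 49 and 24 counts, a log2 fold change of 2.68 (SE 0.48). Sema3f passed the filter through its injured pools alone, so these values describe its counts and are not a test of injury.

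Sema3b fell by 1.76 on the log2 scale in young mice (SE 0.34, adjusted p = 0.000455, edgeR), from 6.10, 8.33 and 9.67 CPM to 3.23, 2.25 and 1.58 CPM. In middle-aged mice it fell by 2.55 (SE 0.34, adjusted p = 1.89e-05), from 12.2, 8.07 and 13.4 CPM to 2.07, 1.20 and 2.50 CPM. It thus ran against Sema3d, which was higher at both ages. The other class 3 ligands that passed, Sema3f and Sema3g, entered the test through their injured pools. Sema3g, at 3 to 32 counts per pool, was higher in injured middle-aged pools, at 2.16, 2.55 and 1.64 CPM against 0.384, 0.314 and 0.799 CPM (log2 fold change 2.03, SE 0.61). In young mice its groups overlapped, at 0.430 to 2.27 CPM in naïve and 0.827 to 2.20 CPM in injured pools (log2 fold change 0.34, SE 0.55).

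The other class 3 ligands, 3 in all, did not pass the test at either age. Sema3a, the repellent that binds Nrp1, was at 15.4 to 23.6 CPM in young naïve and 20.0 to 22.2 CPM in young injured pools. The 95% interval of its log2 fold change was −0.57 to 0.76 in young and −1.01 to 0.34 in middle-aged mice. Sema3e, which binds Plxnd1 without a neuropilin, had intervals of −1.01 to 0.27 and −0.73 to 0.54. Sema3c had intervals of −0.76 to 0.22 and −0.95 to 0.03, so changes of more than 2-fold lay outside the intervals of Sema3c at both ages.

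Class 4 ligands span the membrane. Sema4d, also called CD100, binds Plxnb1 and, on immune cells, CD72. It was the class 4 member with the highest level, at 181, 200 and 257 CPM in young naïve and 192, 240 and 243 CPM in young injured pools, which overlapped (log2 fold change 0.08, 95% interval −0.25 to 0.41). In middle-aged mice the pools were separate, at 111, 136 and 154 CPM in naïve and 249, 248 and 211 CPM in injured tissue (log2 fold change 0.82, SE 0.16, adjusted p = 0.000437, edgeR). The injured pools of both ages thus lay in one range, and the middle-aged naïve pools lay below it. The difference of Sema4d with age in naïve tissue did not pass when the naïve pools were fitted alone (adjusted p = 0.20, edgeR).

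Sema4b, another membrane-bound ligand, was higher by 0.54 (SE 0.22, adjusted p = 0.048, edgeR) in young and by 0.69 (SE 0.22, adjusted p = 0.0137) in middle-aged mice on the log2 scale. Its pools were at 5.64 to 7.06 CPM in young naïve and 7.04 to 11.5 CPM in young injured tissue, which overlapped by a narrow margin, and at 5.87 to 6.71 and 9.40 to 10.4 CPM in middle-aged mice. The call in young mice was lost in 11 of 21 alternative fits. Sema4a, Sema4c, Sema4f and Sema4g passed the test at neither age.

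Sema5a, a membrane-bound ligand with thrombospondin repeats that is known to bind Plxnb3, was at 151, 147 and 196 CPM in young naïve and at 86.6, 82.8 and 103 CPM in young injured pools. Middle-aged naïve pools held 93.2, 66.2 and 96.7 CPM and middle-aged injured pools 35.9, 28.0 and 40.0 CPM. It fell by 0.86 (SE 0.17, adjusted p = 0.00077, edgeR) in young and by 1.30 (SE 0.18, adjusted p = 2.25e-05) in middle-aged mice on the log2 scale. Sema5b, at 1 to 37 counts per pool, did not pass the test at either age.

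Of the 3 tested class 6 ligands, Sema6d and Sema6a were lower at both ages. Sema6d, a ligand of Plxna1, was at 245, 251 and 321 CPM in young naïve and 102, 109 and 118 CPM in young injured pools (log2 fold change −1.31, SE 0.14, adjusted p = 2.55e-06, edgeR). In middle-aged mice it was at 315, 249 and 329 CPM and at 81.4, 69.1 and 85.4 CPM (log2 fold change −1.92, SE 0.15, adjusted p = 5.97e-08). No injured pool reached the lowest naïve pool.

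Sema6a, which binds Plxna2 and Plxna4, fell by 0.91 (SE 0.18, adjusted p = 0.000616, edgeR) in young and by 0.70 (SE 0.18, adjusted p = 0.00426) in middle-aged mice on the log2 scale. Its young pools were at 78.8, 64.6 and 74.9 CPM before and 44.9, 31.3 and 39.6 CPM after injury. Middle-aged pools were at 48.8, 39.1 and 59.9 CPM in naïve and 29.3, 26.5 and 35.4 CPM in injured tissue. Sema6b ran the other way in middle-aged mice, from 8.53, 6.81 and 7.67 CPM to 11.2, 14.9 and 8.97 CPM (log2 fold change 0.61, SE 0.22, adjusted p = 0.0303, edgeR). In young mice its interval was −0.58 to 0.36. Without replicate 2 of the middle-aged injured group the middle-aged value was 0.39 (adjusted p = 0.179).

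Sema7a, the lipid-anchored ligand of Plxnc1 and of integrins, lay in one range in all groups. It was at 47.2, 51.1 and 48.8 CPM in young naïve, 43.4, 48.8 and 55.9 CPM in middle-aged naïve, 49.5, 46.6 and 56.9 CPM in young injured and 55.0, 58.1 and 44.1 CPM in middle-aged injured pools. The 95% intervals of its log2 fold change with injury were −0.25 to 0.36 in young and −0.22 to 0.39 in middle-aged mice. All 4 groups overlapped.

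**Figure D2:**
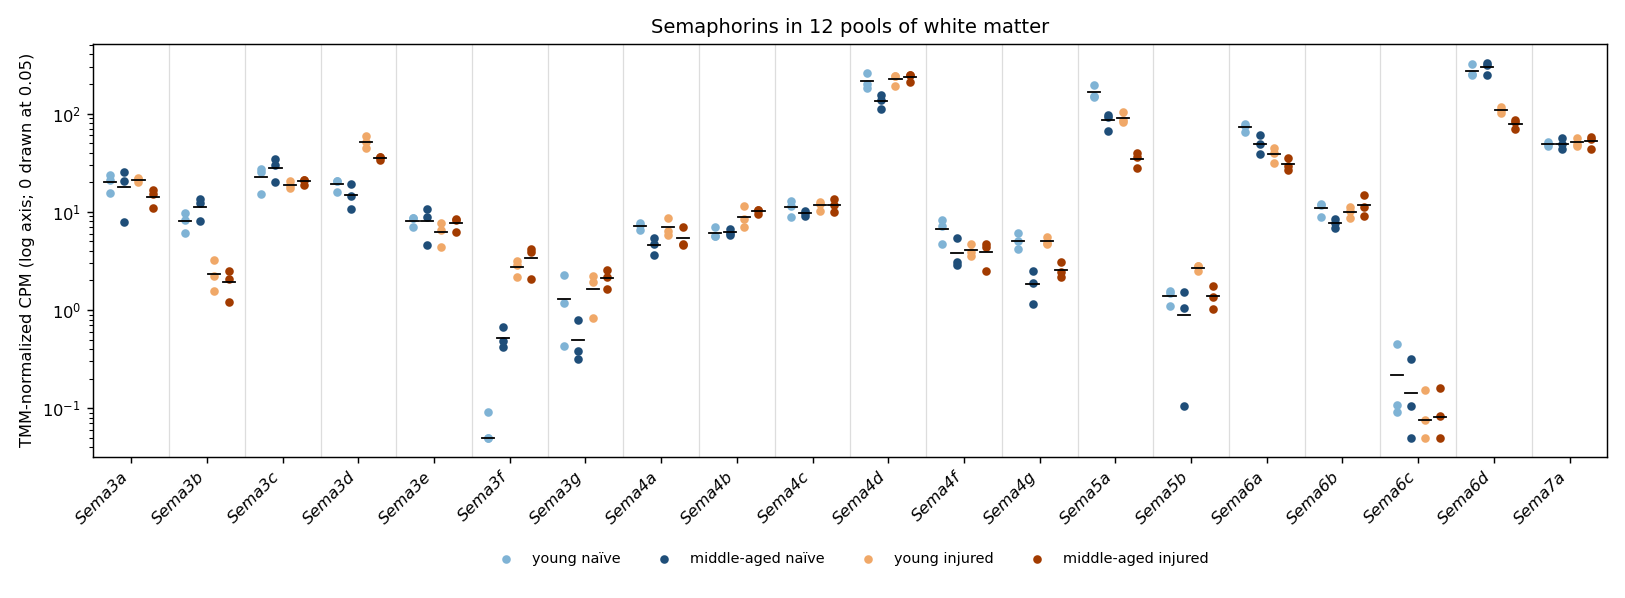
CPM of 20 semaphorins on a log axis, with 1 point per pool and a bar at the group mean (3 pools per group), and with 0 drawn at 0.05. Sema6d and Sema5a step down with injury, Sema3d and Sema3f step up, and Sema7a stays between 43.4 and 58.1 CPM in the 12 pools.

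Among the receptors, Plxnc1 had the largest fold change. It encodes the single C-type plexin, which binds Sema7a. Young naïve pools were at 3.64, 3.17 and 3.11 CPM and middle-aged naïve pools at 5.47, 2.83 and 4.24 CPM. Injured pools were at 74.0, 78.8 and 83.5 CPM in young and 98.8, 101 and 94.8 CPM in middle-aged mice. The level was 23.7-fold higher in young (log2 fold change 4.57, SE 0.19, adjusted p = 2.79e-10, edgeR) and 23.3-fold higher in middle-aged mice (4.55, SE 0.19, adjusted p = 2.18e-10).

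Plxnd1, the receptor of Sema3e in blood vessels, was at 22.2, 19.3 and 27.2 CPM in young naïve and 148, 157 and 145 CPM in young injured pools. In middle-aged mice it was at 23.9, 30.0 and 26.0 CPM and at 164, 171 and 152 CPM. The fold changes were 6.56 (log2 2.71, SE 0.14, adjusted p = 1.90e-09, edgeR) and 6.11 (log2 2.61, SE 0.14, adjusted p = 2.22e-09), with no overlap. Levels of 6 endothelial markers moved less, with their sum at 136 to 228 CPM in naïve and 166 to 255 CPM in injured pools. At each age 2 of 6 were higher with injury, against 28.3% and 29.2% of all genes. Of the 6, 1 (Flt1, −0.47 on the log2 scale) was lower in middle-aged mice.

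The 3 plexins of the B type did not move together. Plxnb2, known to bind Sema4c and Sema4d, was at 14.1, 15.9 and 24.7 CPM in young naïve and 114, 112 and 115 CPM in young injured pools (log2 fold change 2.65, SE 0.25, adjusted p = 5.39e-07, edgeR). In middle-aged mice it was at 15.1, 28.0 and 20.7 CPM and at 124, 136 and 86.4 CPM (2.44, SE 0.24, adjusted p = 9.10e-07). Its partners of the same type were lower in each injured group.

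Plxnb1, the main receptor of Sema4d, was at 51.7, 45.7 and 54.2 CPM in young naïve and 20.3, 31.2 and 28.8 CPM in young injured pools. Middle-aged pools were at 46.7, 62.8 and 61.7 CPM and at 18.1, 14.6 and 21.3 CPM. Plxnb1 fell by 0.92 (SE 0.19, adjusted p = 0.000862, edgeR) in young and by 1.67 (SE 0.19, adjusted p = 4.30e-06) in middle-aged mice on the log2 scale. An antisense transcript overlaps its exons, at 0 to 5 counts per pool.

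Plxnb3, a receptor of Sema5a that is known from oligodendrocytes, was at 39.3, 48.9 and 71.8 CPM in young naïve and 14.9, 15.5 and 21.2 CPM in young injured pools. In middle-aged mice it went from 52.8, 55.2 and 72.0 CPM to 16.7, 11.96 and 15.9 CPM. The log2 fold changes were −1.63 (SE 0.23, adjusted p = 3.25e-05, edgeR) and −2.02 (SE 0.23, adjusted p = 4.28e-06). Ligand and receptor of the pair Sema5a and Plxnb3 were therefore both lower, whereas in the pair Sema7a and Plxnc1 the receptor alone passed the test.

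Because levels can be compared between genes only per length, shares were taken from RPKM, that is CPM divided by the exon length in kilobases. Plxnb2 made up 14.7% ± 1.19 (SD, n = 3) of the summed RPKM of B plexins in young naïve and 73.1% ± 3.50 in young injured pools. In middle-aged mice its share was 15.2% ± 3.61 and 77.6% ± 6.71. Plxnb3 held the largest share before injury, 51.2% ± 5.08 in young and 51.6% ± 5.26 in middle-aged pools, and 13.1% ± 2.08 and 12.3% ± 3.32 after it. With the length of the longest transcript in place of all exons, the share of Plxnb2 was 16.1% and 16.6% in naïve and 75.0% and 79.3% in injured pools.

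Plxnc1 and Plxnd1 together made up 13.6% ± 0.722 and 15.0% ± 1.93 of all plexin RPKM in young and middle-aged naïve pools. After injury they made up 50.2% ± 1.49 and 54.1% ± 2.70. The summed plexin level was 25.9 ± 3.49 RPKM in young and 28.0 ± 3.90 RPKM in middle-aged naïve pools, and 59.7 ± 1.05 and 63.1 ± 5.86 RPKM after injury. These sums and shares are descriptions with no test.

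**Figure D3:**
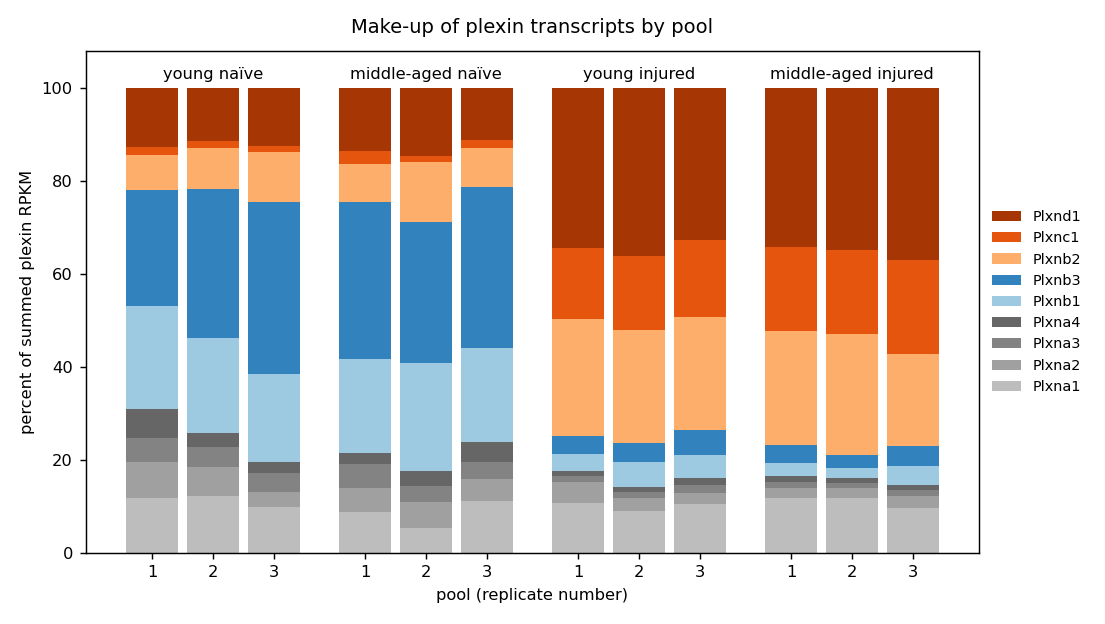
Share of each plexin in the summed plexin RPKM, in percent, with 1 bar per pool in the 4 groups. Plxnb1 and Plxnb3 (blue) are wide in the naïve and narrow in the injured bars, and Plxnb2, Plxnc1 and Plxnd1 (orange to brown) fill most of the injured bars, the C and D plexins alone making up 49.2% to 57.2% there.

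Of the 4 A plexins, the signalling partners of neuropilins, Plxna1 was higher at both ages. It was at 26.1, 26.0 and 26.6 CPM in young naïve and 57.3, 48.9 and 57.6 CPM in young injured pools (log2 fold change 1.06, SE 0.24, adjusted p = 0.00178, edgeR). Middle-aged pools were at 19.0, 13.6 and 31.9 CPM and at 69.6, 72.3 and 49.4 CPM (1.56, SE 0.24, adjusted p = 6.86e-05). An antisense gene that overlaps its exons was at 24 to 57 counts in naïve and 83 to 123 counts in injured pools, and without a stated strand setting reads of the pair cannot be told apart.

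Plxna3 was lower in middle-aged mice, at 9.88, 7.65 and 9.35 CPM in naïve and 6.13, 5.58 and 5.69 CPM in injured pools (log2 fold change −0.63, SE 0.22, adjusted p = 0.0253, edgeR). The call was lost in 7 of 21 alternative fits, among them those without any 1 of the middle-aged injured pools. In young mice the interval was −0.91 to 0.03. Plxna2 and Plxna4, the receptors of Sema6a, passed the test at neither age, with intervals in young mice of −0.10 to 0.93 and −1.14 to 0.25.

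Both neuropilins were higher at both ages. Nrp1, which also binds vascular endothelial growth factor, was at 49.9, 48.8 and 36.8 CPM in young naïve and 259, 274 and 264 CPM in young injured pools (5.88-fold, log2 2.55, SE 0.15, adjusted p = 5.97e-09, edgeR). In middle-aged mice it was at 41.5, 36.2 and 50.1 CPM and at 339, 306 and 278 CPM (7.21-fold, log2 2.85, SE 0.15, adjusted p = 2.13e-09). The groups were far apart at each age.

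Nrp2, the co-receptor of Sema3f, was at 22.4, 23.4 and 16.3 CPM in young naïve and 96.3, 78.4 and 96.9 CPM in young injured pools. Middle-aged pools were at 21.9, 23.7 and 38.3 CPM and at 115, 104 and 110 CPM. The fold changes were 4.37 (log2 2.13, SE 0.20, adjusted p = 7.08e-07, edgeR) and 3.91 (log2 1.97, SE 0.20, adjusted p = 1.13e-06). The summed neuropilin level was 6.36 ± 1.06 and 6.71 ± 1.43 RPKM in young and middle-aged naïve and 34.8 ± 0.324 and 40.7 ± 3.36 RPKM in injured pools (SD, n = 3).

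**Figure D4:**
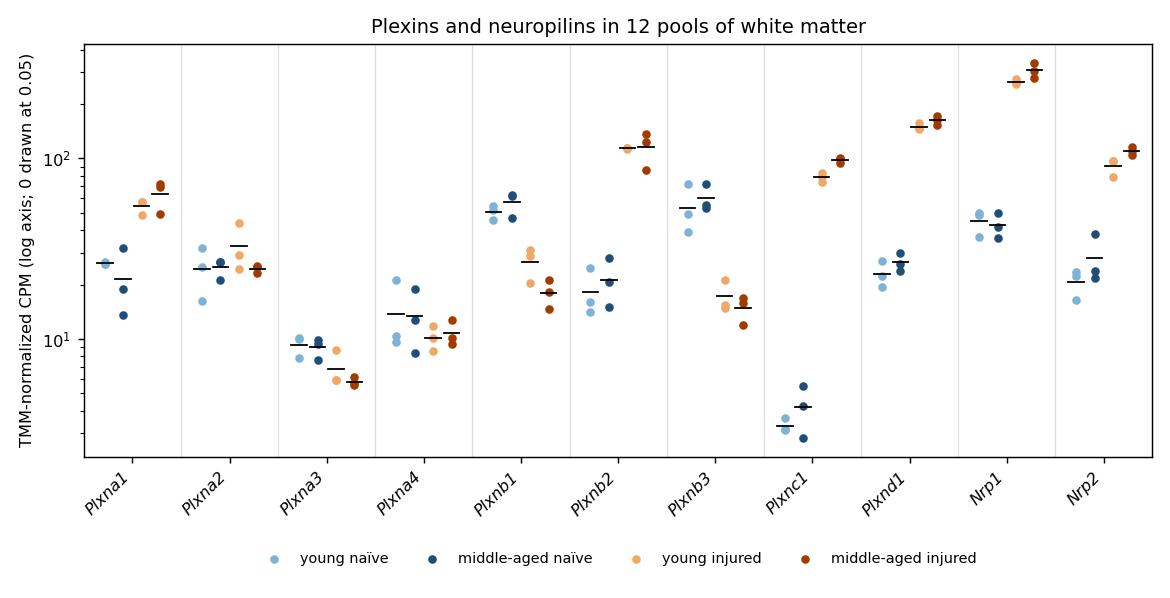
CPM of 9 plexins and 2 neuropilins on a log axis, with 1 point per pool and a bar at the group mean (3 pools per group). Plxnb2, Plxnc1, Plxnd1, Nrp1 and Nrp2 lie higher in all 6 injured than in all 6 naïve pools, and Plxnb1 and Plxnb3 lie lower. Naïve Plxnc1 is lowest, at 2.83 to 5.47 CPM.

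Markers of other cells moved with these receptors. All 7 pan-myeloid markers and all 6 fibroblast markers (Pdgfra, one of these, is also a progenitor marker) were higher with injury at both ages. Over all genes, 28.3% were higher and 26.3% lower in young mice, and 29.2% and 29.3% in middle-aged mice. The sum of 5 monocyte markers was at most 1.53 CPM in naïve pools, with 4 of the 5 at 0 in every young naïve pool. In injured pools their sum was 83.2 to 232 CPM. These markers passed the filter on low counts through their injured pools, so their calls are not counted here. All 4 proliferation markers were higher at both ages, with sums of 1.57 to 11.8 CPM in naïve and 329 to 474 CPM in injured pools. Of 6 microglia markers, 3 were higher and 1 lower in young and 2 higher and 2 lower in middle-aged mice, and their sum was 410 to 855 CPM in naïve and 3155 to 4375 CPM in injured pools. The members that fell moved with oligodendrocyte markers, 8 of 8 of which were lower at both ages, with astrocyte markers, 5 of 6, and with neuronal markers, 5 of 7 in young and 6 of 7 in middle-aged mice, where 1 neuronal marker (Slc17a6, 1.52 on the log2 scale) was higher. The sum of 5 pericyte markers was 278 to 429 CPM in naïve and 143 to 240 CPM in injured pools. Sums of progenitor markers overlapped, at 425 to 659 CPM in naïve and 415 to 616 CPM in injured pools. Those of Schwann cell markers overlapped too, at 229 to 401 CPM and 329 to 432 CPM. The part of these cells in the changes of the receptors and ligands was not tested.

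The order of levels within the family differed between naïve and injured pools. Per length, Sema4d, Sema6d and Sema7a were the highest members in young naïve pools, at 27.7 ± 5.12, 25.8 ± 3.97 and 14.9 ± 0.586 RPKM (SD, n = 3), and the pools of the first pair overlapped. In young injured pools Sema4d was at 29.3 ± 3.69, Nrp1 at 27.2 ± 0.783 and Plxnd1 at 20.5 ± 0.866 RPKM, again with overlap between the first pair. Middle-aged naïve pools had Sema6d at 28.2 ± 4.05 and Sema4d at 17.4 ± 2.81 RPKM, which did not overlap. In middle-aged injured pools Nrp1 was at 31.4 ± 3.12, Sema4d at 30.7 ± 2.82 and Plxnd1 at 22.3 ± 1.28 RPKM, and the first pair overlapped. The place of Nrp1 rests on a merged exon length of 9785 bases, against 3645 bases for its longest transcript. That of Sema7a in young naïve pools depends on the length as well. With the longest transcript, Sema5a made up 9.64% and Sema7a 9.51% of the summed semaphorin RPKM there.

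The summed semaphorin level was 105 ± 9.58 and 88.2 ± 10.9 RPKM in young and middle-aged naïve pools and 86.3 ± 5.55 and 79.2 ± 5.00 RPKM in injured pools (SD, n = 3). Class 6 made up 35.1% ± 1.19 and 40.5% ± 2.46 of it in young and middle-aged naïve pools and 20.1% ± 0.766 and 17.6% ± 1.73 in injured pools. Class 4, mostly Sema4d, made up 32.7% ± 1.96 and 25.5% ± 3.60 before and 41.7% ± 3.33 and 46.8% ± 1.69 after injury. Class 5 made up 8.56% ± 0.650 and 5.29% ± 0.672 before and 6.06% ± 0.371 and 2.60% ± 0.522 after it. With the length of the longest transcript, class 4 made up 36.0% and 28.3% before and 46.8% and 53.1% after injury. Class 6 then made up 35.4% and 42.5% before and 19.9% and 17.2% after injury.

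Middle-aged mice were then compared with young mice, first in naïve tissue. There 1 member was higher and 3 were lower, 4 of 30 (13.3%) against 3.8% of all genes tested (2.02% higher and 1.78% lower). All middle-aged pools were above all young pools for 1 member and below them for 6, against 17.1% of genes without overlap. With at least 2-fold asked as well, Sema3f and Sema4g were left, against 1.99% of all genes. Sema5a fell by 0.95 on the log2 scale with age (SE 0.18, adjusted p = 0.00861, edgeR), and its pools, given above, did not overlap. Sema4g was at 5.10, 4.16 and 6.01 CPM in young and 1.15, 1.89 and 2.48 CPM in middle-aged naïve pools (log2 fold change −1.45, SE 0.32, adjusted p = 0.0236, edgeR). Sema4d fell by 0.67 (SE 0.16, adjusted p = 0.0326, edgeR).

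Sema3f was the member that was higher with age, at 17 counts in the middle-aged against 1 count in the young naïve pools, a ratio of 16.4 with a 95% counting interval of 2.57 to 686 (adjusted p = 0.0327, edgeR). None of these 4 calls held in every alternative. When the 6 naïve pools were fitted alone, 0 of the 28 members tested passed, against 0.493% of all 14401 genes tested there, and Sema3f and Sema3g were not tested. In that fit the log2 fold changes and adjusted p (edgeR) were −0.94 and 0.0925 for Sema5a, −0.66 and 0.20 for Sema4d, and −1.45 and 0.209 for Sema4g. Cell markers moved with age in naïve tissue as well. Of the oligodendrocyte markers 5 of 8 were lower and of the proliferation markers 4 of 4, against 1.78% of all genes. Of the pan-myeloid markers 4 of 7 were higher and of the microglia markers 3 of 6, against 2.02% of all genes. The part of these cells was not tested.

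In injured tissue 1 of 30 members (3.33%) passed the test between ages, against 1.15% of all genes (0.24% higher and 0.908% lower). Pools did not overlap for 3 members that were above and 6 that were below the young pools, against 23.2% of genes. The member that passed was Sema5a, which fell by 1.39 (SE 0.18, adjusted p = 0.00246, edgeR), from 82.8 to 103 CPM in young to 28.0 to 40.0 CPM in middle-aged pools, and the call held in all 21 alternatives. Of the oligodendrocyte markers, 7 of 8 were lower with age in injured tissue. Some other marker sums were apart as well. Progenitor markers summed to 479 to 616 CPM in young and 415 to 432 CPM in middle-aged pools. Fibroblast markers summed to 1076 to 1591 and 560 to 992 CPM. Monocyte markers went the other way, at 83.2 to 125 and 182 to 232 CPM. So did endothelial markers, at 166 to 226 and 232 to 255 CPM. Sums of astrocyte and microglia markers overlapped. The part of these cells was not tested. The receptors that were higher after injury had intervals for the effect of age in injured tissue of −0.01 to 0.64 (Plxnc1), −0.16 to 0.39 (Plxnd1), −0.46 to 0.50 (Plxnb2), −0.27 to 0.72 (Plxna1), −0.09 to 0.51 (Nrp1) and −0.13 to 0.68 (Nrp2) on the log2 scale. A 2-fold difference with age lay outside each of these intervals. Fitted with the 6 injured pools alone, 5 of 30 members were lower with age, Sema5a and also Sema3a, Sema3d, Sema4g and Sema6d, against 5.46% of all 15048 genes tested in that fit, in either direction.

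Whether the effect of injury differed between ages was tested as the difference of both log2 fold changes. In 0 of 30 members did it pass the test by edgeR, against 0.139% of all genes, and in 0 by DESeq2. The difference, middle-aged minus young, was −0.75 (SE 0.27, adjusted p = 0.333) for Plxnb1, −0.61 (SE 0.20, adjusted p = 0.274) for Sema6d and 0.74 (SE 0.22, adjusted p = 0.218) for Sema4d. The members called in middle-aged mice alone were therefore not shown to differ between ages.

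Genes known to work with the family were taken as 3 lists. Of 22 alternative receptors, co-receptors and competing ligands, 19 were tested, and 11 were higher and 2 lower in young mice, and 9 higher and 5 lower in middle-aged mice. Of 32 intracellular effectors, 9 were higher and 13 lower in young and 9 higher and 12 lower in middle-aged mice. Of 6 proteases that process semaphorins and their receptors, 4 were higher and 1 lower in young and 5 higher and 1 lower in middle-aged mice. The shares that passed were 68.4%, 68.8% and 83.3% in young mice, against 54.6% of all genes, and 73.7%, 65.6% and 100% in middle-aged mice, against 58.5%. The lists were chosen with earlier results of these data known, so these shares are descriptions with no test. The median log2 fold changes of the lists were 1.18, −0.20 and 1.19 in young and 0.74, −0.02 and 1.91 in middle-aged mice, against 0.00 and −0.03 over all genes.

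Among those that passed at both ages, the 3 with the largest rise by the mean of both ages were Cd72, Trem2 and Tyrobp. Cd72, the immune receptor of Sema4d, had a log2 fold change of 4.40 in young (SE 0.30) and of 4.40 in middle-aged mice (SE 0.29). Trem2, a myeloid receptor that can pair with Plxna1, was higher by 4.41 (SE 0.26) and 3.47 (SE 0.24). Tyrobp, its adaptor, was higher by 4.26 (SE 0.25) and 3.29 (SE 0.23), and is also 1 of the 7 pan-myeloid markers. The largest falls by the same mean were those of Cntn2, an axonal and glial adhesion protein (−1.74 and −2.18), Dpysl5, a relative of the collapsin response mediators (−1.35 and −2.50), and the convertase Pcsk6 (−1.40 and −1.80).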

How the data were processed

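RNA sequencing libraries of 12 pools, 3 in each of 4 groups, were analysed, with group and replicate number taken from the sample labels and ages from the study's methods. The authors checked reads with FastQC 0.11.4, mapped them with TopHat 2.0.10, which ran bowtie 1.1.2, and deposited raw featureCounts counts per gene. The annotation release, the strand setting and the handling of shared reads are not given in the sources used here. All count columns were used. Nothing states more than that each pool held RNA of 5 mice, so p-values measure the spread between pools.

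Counts were fitted in R 4.3.3 with edgeR 4.0.16 (TMM scaling, filterByExpr, glmQLFit and glmQLFTest), with all 12 pools and 1 coefficient per group, and Benjamini-Hochberg adjustment ran over 15866 genes (threshold 0.05). Standard errors were obtained as log2 fold change over the square root of F. CPM were scaled by TMM-adjusted totals, and RPKM also by merged exon length. Totals of 9834447 to 12807437 counts put a floor of 3 counts at 0.234 to 0.305 CPM, and counting intervals (95%) cover counting error only. Positions are those of GENCODE on GRCm38, and promoters are from RefSeq.

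Per-pool values are given for members past the threshold between ages and for up to 3 rising and 3 falling members with the largest change by injury in each class, and the other members are summarised. In the lists, up to 3 rising and 3 falling genes past the threshold at both ages are named, by the mean change. The members and lists were chosen with earlier results of these data known. Alternatives were 4 other scalings, DESeq2 1.42.0, 2 other filters, a replicate block, the compared pools alone, a minimum fold change, other transcript lengths and leaving out each pool. The scripts were tested on simulated data.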

Additional observations from a re-analysis of the deposited data

How the results depend on the processing

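No direction of a called member reversed in any alternative, and DESeq2 changed no call of a member. With injury, 8 of 9 higher calls (not Sema4b) and 6 of 6 lower calls held in every alternative fit in young mice (a minimum fold change, given apart, is not among these), and 11 of 12 (not Sema6b) and 6 of 7 (not Plxna3) in middle-aged mice. Between ages, 0 of 1 and 0 of 3 calls in naïve and 1 of 1 in injured tissue did so. The higher calls with injury include Sema3f at both ages and Sema3g in middle-aged mice, which passed the filter through their injured pools. With only the pools compared in the fit, 0 of 28 members were higher and 0 lower with age in naïve tissue, against 0.493% of all genes, and 5 of 30 were lower in injured tissue, against 5.46% (Sema3f and Sema3g were not tested in the naïve fit). With at least 2-fold asked as well, 3 members were lower with injury in young mice and 1 was lower with age in naïve tissue. With no filter on low counts, 1 member (Sema4d, 0.75 on the log2 scale, adjusted p = 0.0496) passed as a difference of the injury effects. With library totals alone, the median log2 fold change of all genes with injury was 0.20 in young mice, against 0.00 with TMM scaling. For the difference of the injury effects it was −0.13, against −0.05 with TMM scaling. Plxna2 then passed in young mice (0.61, adjusted p = 0.0443), and Plxna3 did not pass in middle-aged mice (−0.52, adjusted p = 0.0633). With no filter, Sema4b (young, 0.13), Plxna3 (0.0815) and Sema6b (middle-aged, 0.0515) lost their calls with injury by adjusted p, and Sema6a passed with age in naïve tissue (0.0435). With only the pools compared, Sema4b (0.064) and Sema6b (0.0808) lost theirs, and Sema4f (0.0307) and Sema5b (0.0188) passed in young mice. Upper quartile scaling lost Sema4b (0.07). The cause of these changes was not tested.

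When single pools were left out, the number of members higher with age in naïve tissue was 0 to 1 and of those lower 1 to 4. With injury, 8 to 10 were higher and 6 to 7 lower in young, and 11 to 12 higher and 6 to 9 lower in middle-aged mice. Sema3f lost its call with age in naïve tissue without replicates 1 or 3 of the young naïve, 1 of the middle-aged naïve, 1 or 2 of the young injured or 1 of the middle-aged injured group (adjusted p = 0.0504 to 0.112). Sema4g lost it without young naïve replicates 1 or 3 (0.062 and 0.0679). Sema4d lost it without young naïve 2 or 3, middle-aged naïve 1, young injured 2 or 3, or middle-aged injured 1 or 2 (0.0511 to 0.0995), and Sema6a gained it without middle-aged naïve 3 (0.0469). In young injury, Sema4b lost its call without young naïve 1 or 3, young injured 2 or 3 or any middle-aged injured pool (0.0571 to 0.251). Gained there were Sema4f without young naïve 3 (0.037) or middle-aged naïve 2 (0.0373), Sema5b without middle-aged naïve 2 (0.0274) and Plxna3 without young injured 3 (0.0383). In middle-aged injury, Plxna3 lost its call without middle-aged naïve 1 or 3 or any middle-aged injured pool (0.053 to 0.0709), and Sema6b without middle-aged naïve 2 or 3 or middle-aged injured 1 or 2 (0.0561 to 0.179). Sema3a (0.0109) and Sema3c (0.0138) were gained as lower without middle-aged naïve 2.

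The replicate numbers name pools of other mice. Same-numbered pools deviated together with r of −0.11 to 0.15, over 0.1 in 2 of 12 pairs, and not every pool correlated best with its own number. Pairing by number was thus not shown, and with 3 pools per group these correlations cannot exclude it. With the replicate block, 8 members were higher with injury in young mice, Sema4b being lost (0.54, adjusted p = 0.059), and Sema6a passed with age in naïve tissue (−0.58, adjusted p = 0.0389). The depth limits Sema6c, Sema3f, Sema3g and Sema5b, which had pools at or under the floor of 3 counts.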

Other observations

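The table also held 3 antisense genes named after Plxna4, which are not protein-coding and were left out of the family. Plxna4os1 was at 2 to 7 counts in young naïve, 0 to 28 counts in middle-aged naïve, 55 to 84 counts in young injured and 45 to 63 counts in middle-aged injured pools, so every injured pool was above every naïve pool. Plxna4 itself passed the test in none of the 5 comparisons. Plxna4os2 and Plxna4os3 were at 0 or 1 count in each pool.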
